A study of Mus musculus with 16 samples.

Results

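Immunoglobulin heavy chain variable segments, written Ighv in mouse, are described here in bulk RNA-seq of mouse lung with bleomycin-induced fibrosis. Members were chosen from the level table by name and level: the mouse symbol of the row, matched through its Ensembl identifier, begins with Ighv, and the row has 1 TPM or more (a level per transcript length scaled to the same total in every library) in at least 4 of 16 libraries. Of 53647 genes in the table, 185 are Ighv rows, and 81 of those 185 met the rule. All 81 are annotated as V genes, not pseudogenes, on chromosome 12. The 104 rows left out comprise 70 V pseudogenes, 32 other V genes and 2 rows of the annotation's LV type, and 67 of the 185 rows were at 0 in every library. Just inside the rule were Ighv2-4, Ighv1-71 and Ighv1-37, with mean levels of 0.526, 0.790 and 1.25 TPM, and just outside it were Ighv8-2, Ighv3-5 and Ighv9-2, with 1.15, 0.931 and 0.897 TPM. The rule uses no group, but a segment at 1 TPM in the 4 libraries of 1 group alone meets it, so counts over the members are a description.

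The 16 libraries were total RNA of lung tissue in 4 groups of 4: bleomycin with Ad-ATP12A, bleomycin with Ad-GFP, bleomycin alone, and Control. They are called Ad-ATP12A, Ad-GFP, Bleomycin and Control below, so every group other than Control received bleomycin. Each group had 2 libraries in batch 2 and 2 in batch 1, the batch being the one written in the titles. Libraries are named by batch and replicate, b2r1 being replicate 1 of batch 2, and 4 values of a group are given in the order b2r1, b2r2, b1r1, b1r2. Strain, sex, age, bleomycin dose, time after treatment, the route and timing of the Ad agents and what was done to Control mice are not stated in the sources used here, nor is whether each library is a separate animal, so p-values measure only the spread between these libraries. Atp12a, the proton pump subunit that Ad-ATP12A is named for, had 29.0, 25.7, 5.13 and 2.96 TPM in Ad-ATP12A and at most 0.20 TPM in any other library.

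A heavy chain gene is built in developing B cells by joining 1 V segment to a D and a J segment, and the rearranged V exon is then spliced to a constant region exon set such as Ighm, Ighg1 or Igha. The V segment encodes most of the antigen-binding domain, including the first and second complementarity-determining loops, while the third loop forms at the V-D-J junction. Each B cell uses 1 heavy chain V segment, so the spread of levels over segments reflects which B lineage clones are present and how much immunoglobulin RNA each cell holds. Plasma cells hold far more of that RNA than resting B cells, so a single expanded plasma cell clone can dominate the V segments of a tissue. In bulk RNA, more cells and more RNA per cell cannot be told apart, and a segment is not a clone, since many clones can share 1 segment.

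The segments on which the results turn are shown as germline coding sequence, bases 52 to 351 of 351, from the transcripts of GENCODE for build GRCm38 (chromosome 12, minus strand), up to the last base before the junction. They are set in pairs, with the positions at which the 2 members of the pair differ in capitals. The first pair led the Control library with the most uneven usage, Control b2r2, and differs at 12 of the bases shown:
Ighv1-82: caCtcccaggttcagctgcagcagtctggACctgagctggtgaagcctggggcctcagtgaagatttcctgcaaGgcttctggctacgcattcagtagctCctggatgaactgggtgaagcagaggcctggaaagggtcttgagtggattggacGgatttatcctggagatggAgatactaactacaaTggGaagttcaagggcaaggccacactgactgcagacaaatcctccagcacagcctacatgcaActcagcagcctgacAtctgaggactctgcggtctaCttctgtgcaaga
Ighv1-80: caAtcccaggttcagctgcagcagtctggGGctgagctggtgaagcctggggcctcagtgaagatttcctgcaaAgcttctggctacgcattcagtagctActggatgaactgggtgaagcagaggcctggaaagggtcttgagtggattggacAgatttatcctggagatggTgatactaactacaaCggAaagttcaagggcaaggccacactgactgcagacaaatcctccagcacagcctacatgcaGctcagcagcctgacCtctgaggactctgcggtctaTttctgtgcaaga
The next pair was most often among the 5 leading segments of a library, and differs at 14 of these bases:
Ighv1-53: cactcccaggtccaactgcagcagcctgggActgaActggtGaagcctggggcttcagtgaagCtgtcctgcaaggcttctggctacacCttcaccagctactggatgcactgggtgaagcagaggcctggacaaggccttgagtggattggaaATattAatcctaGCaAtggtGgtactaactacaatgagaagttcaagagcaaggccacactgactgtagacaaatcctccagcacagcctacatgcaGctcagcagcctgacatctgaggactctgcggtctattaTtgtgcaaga
Ighv1-64: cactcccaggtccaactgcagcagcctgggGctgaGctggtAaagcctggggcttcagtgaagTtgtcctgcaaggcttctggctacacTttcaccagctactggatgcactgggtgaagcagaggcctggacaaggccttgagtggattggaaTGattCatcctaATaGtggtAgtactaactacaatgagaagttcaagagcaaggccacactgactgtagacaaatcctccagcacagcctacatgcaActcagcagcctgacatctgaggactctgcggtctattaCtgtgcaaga
Ighv1-26 led the library with the highest summed level and Ighv1-19 the library with the second highest, and they differ at 12 of these bases:
Ighv1-26: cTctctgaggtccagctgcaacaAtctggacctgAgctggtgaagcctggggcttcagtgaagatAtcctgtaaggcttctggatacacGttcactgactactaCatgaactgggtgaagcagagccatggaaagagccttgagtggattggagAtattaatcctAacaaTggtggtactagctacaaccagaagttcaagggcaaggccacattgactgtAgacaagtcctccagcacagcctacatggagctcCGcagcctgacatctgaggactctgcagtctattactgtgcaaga
Ighv1-19: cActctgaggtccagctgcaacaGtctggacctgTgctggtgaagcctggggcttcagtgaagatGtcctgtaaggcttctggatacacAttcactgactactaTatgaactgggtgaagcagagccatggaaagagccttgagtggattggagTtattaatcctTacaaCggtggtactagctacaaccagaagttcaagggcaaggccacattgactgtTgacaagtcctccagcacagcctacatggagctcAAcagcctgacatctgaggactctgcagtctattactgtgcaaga
Ighv1-63 had the smallest p-value of all members between Ad-ATP12A and Control, and is shown with Ighv1-54, its nearest member, from which it differs at 21 of these bases:
Ighv1-63: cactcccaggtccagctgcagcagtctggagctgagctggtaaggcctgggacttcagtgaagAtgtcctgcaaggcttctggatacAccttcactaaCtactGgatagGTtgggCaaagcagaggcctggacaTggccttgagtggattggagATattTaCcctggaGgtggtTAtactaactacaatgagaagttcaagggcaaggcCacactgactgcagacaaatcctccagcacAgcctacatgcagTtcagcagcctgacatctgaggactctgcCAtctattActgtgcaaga
Ighv1-54: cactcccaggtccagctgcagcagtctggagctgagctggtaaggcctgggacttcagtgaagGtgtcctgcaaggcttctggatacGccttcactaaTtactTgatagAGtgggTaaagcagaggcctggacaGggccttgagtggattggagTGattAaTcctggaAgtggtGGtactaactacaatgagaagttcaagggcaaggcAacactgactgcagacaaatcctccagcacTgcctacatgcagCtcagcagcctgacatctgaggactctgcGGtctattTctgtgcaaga
Ighv9-3 was second by p-value in that comparison and is the only segment outside family 1 shown here, with Ighv9-1, from which it differs at 20 of these bases:
Ighv9-3: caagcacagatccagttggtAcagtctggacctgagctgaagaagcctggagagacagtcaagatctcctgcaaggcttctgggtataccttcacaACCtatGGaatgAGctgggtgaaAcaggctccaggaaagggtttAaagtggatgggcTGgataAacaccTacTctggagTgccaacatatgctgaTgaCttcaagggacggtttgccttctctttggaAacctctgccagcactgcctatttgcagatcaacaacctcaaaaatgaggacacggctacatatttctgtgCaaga
Ighv9-1: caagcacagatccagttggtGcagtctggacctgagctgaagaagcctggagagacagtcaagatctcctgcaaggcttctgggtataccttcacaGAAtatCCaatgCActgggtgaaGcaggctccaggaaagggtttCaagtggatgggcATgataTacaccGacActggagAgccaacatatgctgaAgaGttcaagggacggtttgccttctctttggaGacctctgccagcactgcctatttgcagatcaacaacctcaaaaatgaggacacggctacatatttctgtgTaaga

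Sequence likeness sets how well short reads separate these segments. Over the whole coding sequence, pairs of 1 family were 84.9% identical in the median (968 pairs) and pairs of different families 57.6% (2272 pairs). For 37 of the 81 members the nearest member was at least 95% identical, and for 6 at least 98%. Ighv1-62-2 and Ighv1-71 were 99.7% identical, with 1 differing position, so their separate levels are uncertain: Ighv1-62-2 had 103 TPM in Ad-ATP12A b2r2, where Ighv1-71 was at 0. These 2 were named after their values were seen. Likeness did not make levels move together in every case. Ighv1-82 and Ighv1-80, at 95.4% identity, had 197 and 165 TPM in Control b2r2 but 108 and 10.8 TPM in Bleomycin b2r2. Ighv1-26 and Ighv1-19 had 535 and 250 TPM in Ad-ATP12A b2r2 and, in the opposite order, 117 and 381 TPM in Bleomycin b2r1.

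The summed level of all Ighv rows differed widely between libraries of the same group. It was 975, 5675, 803 and 1278 TPM in Ad-ATP12A, 738, 722, 541 and 82.3 TPM in Ad-GFP, 2371, 573, 215 and 164 TPM in Bleomycin, and 269.6, 911, 1114 and 846 TPM in Control. Every Ad-ATP12A library lay above every Ad-GFP library, and no other pair of groups was separated. The mean was 2183 ± 2336 TPM in Ad-ATP12A, 521 ± 306 TPM in Ad-GFP, 831 ± 1043 TPM in Bleomycin and 785 ± 362 TPM in Control (SD, n = 4 each). Within groups the SD of the log2 sum was 1.40. As sums over members chosen with results of these data known, these values are a description and were not tested.

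**Figure D1:**
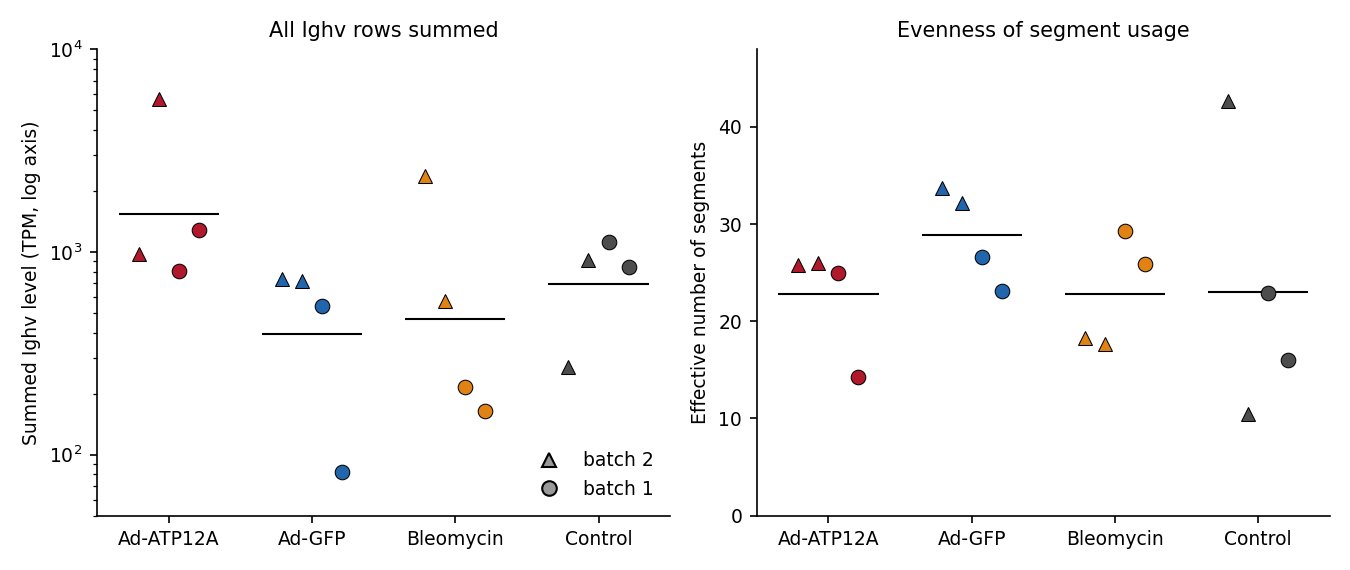
Left, the summed Ighv level of each library in TPM on a log axis; right, the effective number of segments, the inverse of the summed squared shares. Points are libraries (triangles batch 2, circles batch 1) and lines are the geometric mean (left) or mean (right) of 4 libraries per group. The 4 Ad-ATP12A libraries, 803 to 5675 TPM, lie above the 4 Ad-GFP libraries, 82.3 to 738 TPM, while the effective number overlaps among all groups.

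On the log2 scale, the ratio of geometric mean sums was 1.98 for Ad-ATP12A against Ad-GFP, and it was 1.69 within batch 2 and 2.26 within batch 1. For Ad-ATP12A against Control the ratio was 1.15, made up of 2.25 in batch 2 and 0.06 in batch 1. Against Control, the other 2 groups changed direction with the batch. Bleomycin against Control was -0.57, with 1.23 in batch 2 and -2.37 in batch 1, and Ad-GFP against Control was -0.82, with 0.56 in batch 2 and -2.20 in batch 1. Ad-GFP against Bleomycin was -0.25, with -0.68 in batch 2 and 0.17 in batch 1. The ratio for Ad-ATP12A against Ad-GFP was 1.35 without Ad-ATP12A b2r2 and 1.23 without Ad-GFP b1r2, and that for Ad-ATP12A against Control was 0.53 without Ad-ATP12A b2r2 and 0.70 without Control b2r1. Leaving out 1 library gave -1.28 to -0.07 for Ad-GFP against Control, at its ends without Control b2r1 and without Ad-GFP b1r2. It gave -1.35 to -0.06 for Bleomycin against Control, without Bleomycin b2r1 and without Bleomycin b1r2. Ad-GFP against Bleomycin turned positive, at 0.50 without Ad-GFP b1r2 and 0.53 without Bleomycin b2r1. Batch 2 libraries averaged 1529 ± 1787 TPM and batch 1 libraries 630.5 ± 452 TPM (SD, n = 8 each). Of the 81 members 42 had their highest level in Ad-ATP12A b2r2 and 14 in Bleomycin b2r1, the 2 libraries with the highest sums. Both are among the 6 libraries with 10 TPM or more of Xist, the RNA of the inactive X chromosome of females. The 6 had a median summed Ighv level of 1196 TPM (541 to 5675), against 648 TPM (82.3 to 975) in the other 10, and 3 of the 6 are Ad-ATP12A libraries. The part of sex in the Ighv level was not tested for the sums.

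Most segments were present in most libraries at low to moderate levels. Mean levels of the 81 members ran over 0.53 to 66.8 TPM with a median of 8.74 TPM, and 13.6% of the 1296 member values were 0. Only 8 members had 1 TPM or more in all 16 libraries: Ighv1-26, Ighv1-53, Ighv3-6, Ighv1-9, Ighv1-72, Ighv6-3, Ighv5-17 and Ighv1-22. A further 17 had it in all but 1. The number of Ighv rows with 1 TPM or more was 62, 78, 63 and 65 in Ad-ATP12A, 66, 69, 56 and 24 in Ad-GFP, 79, 65, 42 and 31 in Bleomycin, and 61, 61, 70 and 63 in Control. The low counts fell in the libraries with the lowest sums, Ad-GFP b1r2 and both batch 1 Bleomycin libraries. The members held between 97.4% and 99.6% of all Ighv TPM in each library.

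Usage, the share of a segment in a library's summed Ighv TPM, was spread over many segments with a few leaders. The 10 members with the largest mean share over the 16 libraries together held 36.5%, and 17 members held 50%. They were Ighv1-82 (5.27%), Ighv1-26 (4.79%), Ighv1-53 (4.75%), Ighv1-64 (4.67%), Ighv3-6 (2.96%), Ighv9-3 (2.89%), Ighv1-9 (2.86%), Ighv1-55 (2.83%), Ighv1-72 (2.80%) and Ighv1-80 (2.64%). Ighv1-72, known in C57BL/6 mice as the V186.2 segment of the response to the hapten NP, was present at 1 TPM or more throughout. Ighv1-53 and Ighv1-64 were each among the 5 leading segments in 9 libraries, Ighv1-26 in 7 and Ighv1-82 in 5. In all, 33 segments reached the leading 5 of some library, and 13 of those did so in 1 library only.

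**Figure D2:**
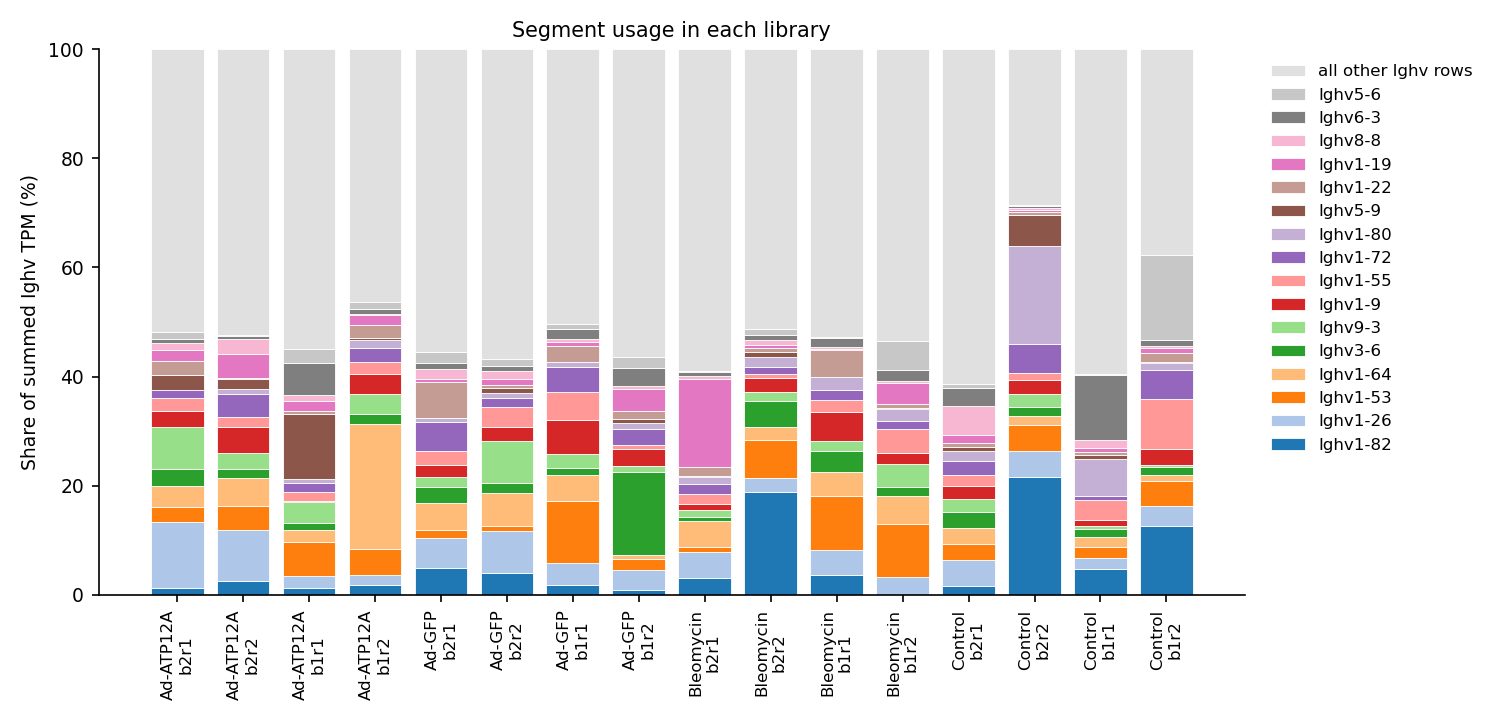
Bars are libraries and the height of each colour is the share of summed Ighv TPM, in %, held by 1 segment. Shown are the 10 segments with the largest mean share and every other segment that led a library, with all other rows in light grey. Each group has 3 or 4 different leading segments in its 4 libraries, and the leader's share runs from Ighv1-64 at 22.8% in Ad-ATP12A b1r2 to Ighv8-8 at 5.42% in Control b2r1.

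The leading segment often differed between libraries, with 12 distinct leaders in 16 libraries. Ighv1-53 led 3 libraries, and Ighv1-26 and Ighv1-82 led 2 each. In Ad-ATP12A the leaders were Ighv1-26 in b2r1 (117 TPM, 12.1%), Ighv1-26 in b2r2 (535 TPM, 9.43%), Ighv5-9 in b1r1 (95.5 TPM, 11.9%) and Ighv1-64 in b1r2 (292 TPM, 22.8%). In Ad-GFP they were Ighv1-22 (48.3 TPM, 6.55%), Ighv9-3 (55.4 TPM, 7.67%), Ighv1-53 (61.2 TPM, 11.3%) and Ighv3-6 (12.6 TPM, 15.3%). No segment led more than 1 Ad-GFP library. In Bleomycin, Ighv1-19 led b2r1 (381 TPM, 16.1%), Ighv1-82 led b2r2 (108 TPM, 18.8%), and Ighv1-53 led both batch 1 libraries (21.6 TPM, 10.04%, and 15.99 TPM, 9.75%). Control had Ighv8-8 in b2r1 (14.6 TPM, 5.42%), Ighv1-82 in b2r2 (197 TPM, 21.6%), Ighv6-3 in b1r1 (133 TPM, 11.97%) and Ighv5-6 in b1r2 (132 TPM, 15.6%). A segment could lead 1 library and be minor in its replicates, as Ighv5-6 did with 2.09, 2.31 and 2.19 TPM in the other 3 Control libraries. Ighv1-64, in contrast, had 37.6, 289 and 18.4 TPM in the other 3 Ad-ATP12A libraries and was among the 5 leading segments of both batch 2 libraries.

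The effective number of segments, which equals the count of segments if all were used equally, was 25.8, 26.0, 25.02 and 14.2 in Ad-ATP12A, 33.7, 32.1, 26.7 and 23.1 in Ad-GFP, 18.3, 17.7, 29.3 and 25.9 in Bleomycin, and 42.6, 10.46, 22.9 and 16.03 in Control. The groups overlapped, and Control held both the most even and the most uneven library. In Control b2r2 the pair Ighv1-82 and Ighv1-80 held 21.6% and 18.1%, and the 5 leading segments together 55.4%. In Control b2r1 the 5 leaders held 22.1%. That library also had the highest level of Cd79a, the B cell receptor signalling chain, in the study (60.3 TPM), and 22.4 TPM of Jchain, the joining chain of secreted IgA and IgM, the second lowest level, with 168 to 201 TPM in the other Control libraries. It is 1 of 3 libraries, with Ad-GFP b1r1 and Bleomycin b2r2, that had under 1000 TPM of the club cell gene Scgb1a1. The part of this in its usage was not tested.

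Pairs of libraries from 1 group and pairs from different groups had usage about as alike. The overlap of usage, the summed smaller share of each segment in a pair of libraries, had a median of 49.9% over the 24 pairs within groups (40.8% to 61.2%) and 48.1% over the 96 pairs between groups (35.8% to 70.0%). By batch it was 49.2% for the 64 pairs of different batches and 47.9% for the 56 pairs of the same batch. The median pair had 1 of its 5 leading segments in common. Pairs share libraries, so these medians are a description without a test.

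By family, the number before the hyphen in the symbol, family 1 held the most usage. This large family, also called J558, holds 43 of the 81 members and had 58.9% of usage on average, 45.9% to 70.9% by library. Its share was 60.2 ± 7.05% in Ad-ATP12A, 56.5 ± 7.69% in Ad-GFP, 61.1 ± 7.15% in Bleomycin and 57.6 ± 9.92% in Control (SD, n = 4 each). Family 5 (8 members) had 10.05% on average, with 12.1 ± 5.74% in Ad-ATP12A, 8.92 ± 0.773% in Ad-GFP, 7.45 ± 3.71% in Bleomycin and 11.8 ± 5.05% in Control. Family 9 (3 members) had 6.11 ± 2.05% in Ad-ATP12A, 4.23 ± 2.46% in Ad-GFP, 4.55 ± 3.72% in Bleomycin and 2.02 ± 1.103% in Control. Ighv11-2, the member of family 11 and a segment typical of B-1 cells, averaged 0.751% of usage and never passed 2.25%. Families 6 and 3 reached high shares in single libraries, 19.9% in Control b1r1 through Ighv6-3 and Ighv6-6, and 15.8% in Ad-GFP b1r2 through Ighv3-6. Ordered along the locus from the end next to the D and J segments, 4 blocks of 21, 20, 20 and 20 members held mean shares of 18.8%, 24.8%, 27.1% and 28.1%.

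Between Ad-ATP12A and Control, 7 segments rose and none fell: Ighv1-63, Ighv9-3, Ighv1-58, Ighv1-85, Ighv1-39, Ighv14-3 and Ighv1-59. Over all 17003 genes tested, 13.3% were higher and 9.49% lower by the same test, limma with a trended prior on log2(TPM + 1) and Benjamini-Hochberg adjustment over all genes at 0.05. The 7 make up 8.64% of the members, a share that did not exceed the one over all genes. The 3 comparisons against Control share its 4 libraries. The median log2 fold change of the 81 members was 0.94, with 68 positive, beside 0.00 over all genes. By batch the member median was 1.88 in batch 2, with 71 positive, and -0.06 in batch 1, with 39 positive. Fold changes are differences of log2(TPM + 1), which understate the change of low segments.

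Ighv1-63 was at a like level in all Ad-ATP12A libraries, 15.3, 19.2, 15.1 and 15.9 TPM, and near absent in Control, 0.53, 0.46, 0 and 1.1 TPM. It averaged 16.4 ± 1.94 TPM in Ad-ATP12A and 0.523 ± 0.451 TPM in Control (SD, n = 4 each), a log2 fold change of 3.56 (SE 0.716, limma adjusted p = 0.00446). It did not set Ad-ATP12A apart from every treated library: it had 18.3, 5.09, 0 and 0.83 TPM in Ad-GFP and 1.68, 18.9, 0.46 and 0 TPM in Bleomycin. Ighv9-3 had 75.5, 167, 31.0 and 48.2 TPM in Ad-ATP12A, against 6.35, 21.9, 6.23 and 2.76 TPM in Control. All 4 Ad-ATP12A libraries lay above all 4 Control libraries, and the log2 fold change was 3.03 (SE 0.631, limma adjusted p = 0.00522).

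Ighv1-58 had 0.48, 88.7, 48.3 and 59.6 TPM in Ad-ATP12A, against 3.71, 0, 0.31 and 2.21 TPM in Control. Ad-ATP12A b2r1 lay inside the Control range, and the log2 fold change was 3.57 (SE 1.08, limma adjusted p = 0.0303). Ighv14-3 had 36.9, 519, 20.7 and 15.9 TPM in Ad-ATP12A, against 13.4, 6.18, 3.91 and 11.4 TPM in Control, with no overlap (log2 fold change 2.54, limma adjusted p = 0.0395). Ighv1-39 had 14.3, 128, 17.4 and 13.9 TPM in Ad-ATP12A, against 3.71, 12.8, 7.16 and 2.76 TPM in Control, again without overlap (2.02, adjusted p = 0.0388). In both, b2r2 was several times the other 3 Ad-ATP12A libraries. The 2 remaining segments were low: Ighv1-85 averaged 6.56 ± 2.97 TPM in Ad-ATP12A and 2.34 ± 2.07 TPM in Control (1.35, limma adjusted p = 0.0313), and Ighv1-59 averaged 7.40 ± 8.79 TPM in Ad-ATP12A and 0.478 ± 0.751 TPM in Control (2.06, limma adjusted p = 0.0412). Ighv1-59 was named after its values were seen.

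**Figure D3:**
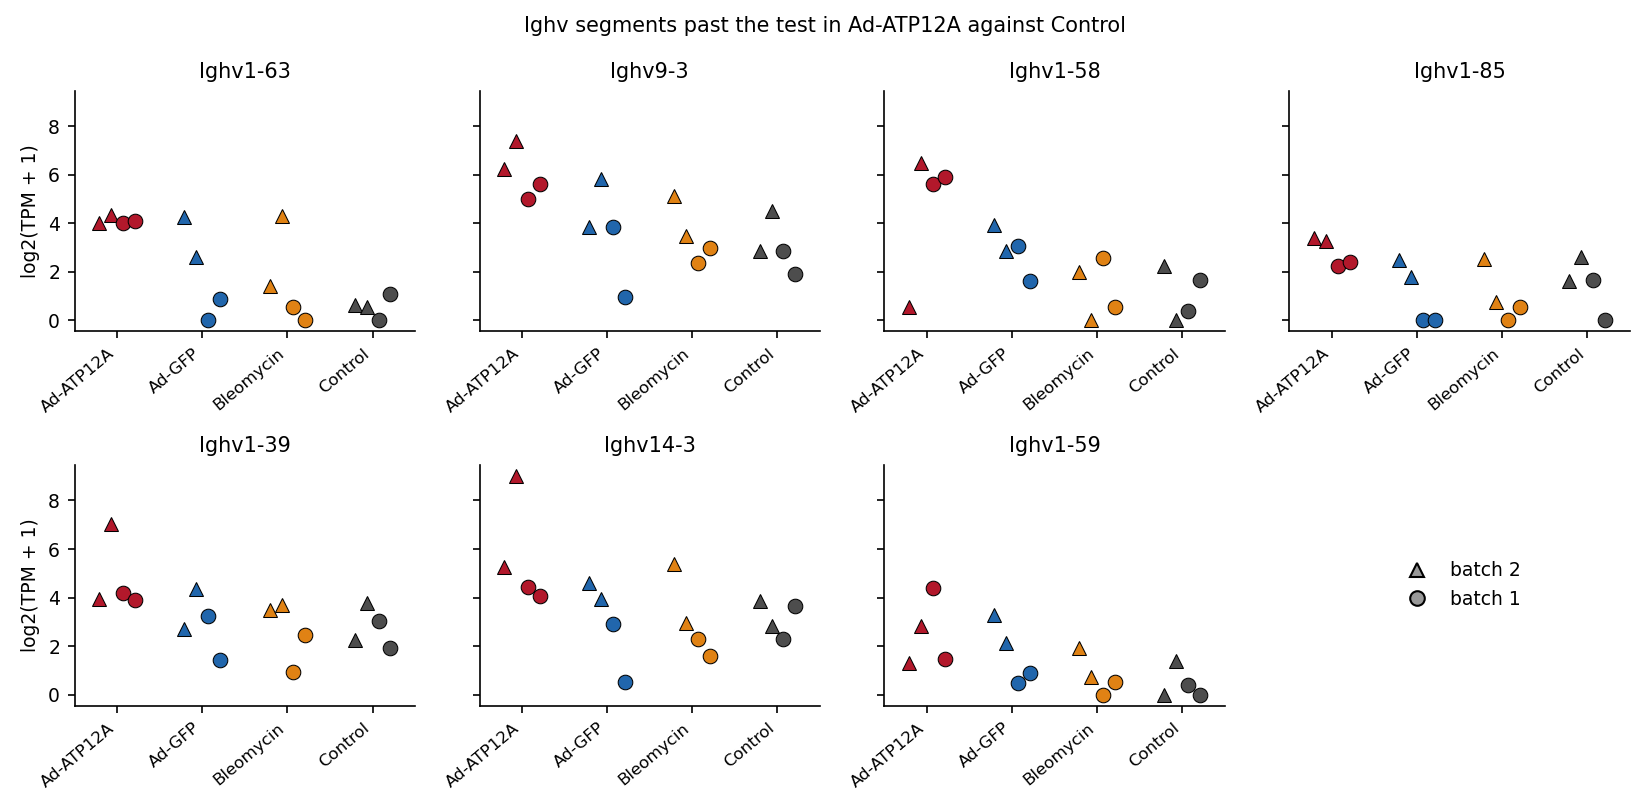
Each panel is 1 of the 7 segments past the test between Ad-ATP12A and Control, with log2(TPM + 1) on the vertical axis and libraries as points (triangles batch 2, circles batch 1). Ighv1-63 lies between 15.1 and 19.2 TPM in every Ad-ATP12A library, while Ighv14-3 and Ighv1-39 have 1 library, Ad-ATP12A b2r2, far above the other 3.

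Without overlap between the groups were 6 members, all higher in Ad-ATP12A, beside 14% of all genes tested that were higher and 10.8% that were lower in this way: Ighv1-63, Ighv9-3, Ighv1-39, Ighv14-3, and, not past the test, Ighv1-19 (log2 fold change 2.64, limma adjusted p = 0.131) and Ighv1-77 (1.38, limma adjusted p = 0.0946). The count of 7 was 2, Ighv1-63 and Ighv9-3, with no filter on low genes, without the 3 libraries low in Scgb1a1 and without Ad-ATP12A b1r1. It was 3 without Ad-ATP12A b2r2 and 3 without Control b2r1, and with a term for the libraries with Xist 2 were higher, again Ighv1-63 and Ighv9-3, and Ighv1-80 was lower. Ighv1-63 passed under each setting tried, and Ighv9-3 under each setting other than a fit of 1 batch alone (adjusted p = 0.0596 in batch 2 and 0.0619 in batch 1).

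Between Ad-ATP12A and Ad-GFP, groups that both received bleomycin and an Ad agent, no member passed the test, while 71 of 81 fold changes were positive. Of all 17003 genes 0.00588% (1 gene) were higher and 0% lower by the adjusted test. At an unadjusted p under 0.05, 18 members were higher (22.2%) and none lower, beside 1.16% of all genes higher and 1.26% lower. The median log2 fold change of the members was 1.22, and -0.01 over all genes, with 1.09 in batch 2 and 1.30 in batch 1. These 81 values are not independent, since they come from the same 8 libraries. The smallest p-values were those of Ighv1-85 (log2 fold change 1.77, SE 0.413) and Ighv5-9 (3.81, SE 0.960), each with a limma adjusted p of 0.999. Ighv1-85 had 9.56, 8.64, 3.72 and 4.33 TPM in Ad-ATP12A, against 4.58, 2.42, 0 and 0 TPM in Ad-GFP. Ighv5-9 had 25.9, 106, 95.5 and 3.24 TPM in Ad-ATP12A, against 0.69, 6.43, 0.55 and 0.56 TPM in Ad-GFP. Ighv1-85 overlapped between the groups, as did Ighv5-9.

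Groups did not overlap for 2 members, both higher in Ad-ATP12A, beside 0.312% of all genes higher and 0.459% lower in this way. Ighv1-19 had 20.6, 249.5, 15.7 and 23.2 TPM in Ad-ATP12A, against 4.06, 8.20, 3.81 and 3.31 TPM in Ad-GFP. Ighv2-3, named after its values were seen, had 5.4, 31.5, 2.55 and 3.95 TPM in Ad-ATP12A, against 1.57, 2.40, 0 and 0 TPM in Ad-GFP. Neither passed the test (limma adjusted p = 0.999 for both). A single library, Ad-ATP12A b2r2, held the highest value of both segments in the group.

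Between Bleomycin and Control, no member passed the test, while 13.2% of all genes were higher and 5.61% lower. At an unadjusted p under 0.05 none was higher and 1 was lower, beside 21.4% and 12.1% of all genes, and the median log2 fold change of the members was -0.20, beside 0.05 over all genes. The smallest p-value was that of Ighv5-9-1, with 11.3, 0.68, 1.58 and 0.31 TPM in Bleomycin, against 7.28, 35.8, 16.7 and 3.34 TPM in Control (log2 fold change -2.10, SE 0.938, limma adjusted p = 0.134). Next was Ighv13-2, with 18.9, 1.96, 7.18 and 0 TPM in Bleomycin, against 1.57, 0.43, 0.88 and 0 TPM in Control (1.53, limma adjusted p = 0.225). Both overlapped between the groups.

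The batches went opposite ways. In a fit of batch 2 alone no member passed in either direction, beside 0.135% of all genes higher and 0.0353% lower, 67 of 81 values were positive and the median was 0.91. In a fit of batch 1 alone 10 members fell and none rose, 72 of 81 values were negative and the median was -1.29. The share of members that fell in batch 1, 12.3%, was near the 12% of all genes that fell in that fit, where 14.3% rose. Ighv1-54 led these 10, with 0.39 and 0.38 TPM in Bleomycin against 5.50 and 5.12 TPM in Control of batch 1, and in batch 2 it had 7.94 and 1.14 TPM in Bleomycin against 1.34 and 1.17 TPM in Control. Ighv8-12 had 1.31 and 0.85 TPM in Bleomycin against 35.3 and 19.99 TPM in Control of batch 1, and in batch 2 it had 65.4 and 7.07 TPM in Bleomycin against 2.53 and 5.67 TPM in Control. Ighv1-54 and Ighv8-12 were named after their values were seen. A test of the difference between batches in this comparison called no member (smallest limma adjusted p = 0.0610, 20 of 81 at an unadjusted p under 0.05).

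Between Ad-GFP and Control, no member passed the test, beside 9.16% of all genes higher and 4.52% lower. At an unadjusted p under 0.05 none was higher and 2 were lower, beside 18.3% and 11.8% of all genes, with a median log2 fold change of -0.31 and 0.03 over all genes. By batch the member median was 0.45 in batch 2 and -1.06 in batch 1. Ighv1-80 had 5.08, 7.04, 5.24 and 0.83 TPM in Ad-GFP, against 4.77, 165, 75.2 and 11.0 TPM in Control (log2 fold change -2.65, SE 1.06, limma adjusted p = 0.111). Control b2r1 lay within the Ad-GFP range. Ighv10-1 was the only member whose groups did not overlap, beside 4.49% of all genes lower and 10.8% higher in this way, with 3.86, 5.79, 5.62 and 0.79 TPM in Ad-GFP, against 6.80, 13.8, 19.97 and 6.21 TPM in Control (-1.37, limma adjusted p = 0.118). Without Control b2r1, Ighv1-80 and Ighv1-82 passed as lower (limma adjusted p = 0.0311 and 0.0432). The share of all genes lower in that fit is not given, so these calls cannot be read against it. By batch alone, 1 member, Ighv5-6, was higher in batch 2, beside 0.271% of all genes higher and 0.129% lower, and 9 were lower in batch 1, 11.1% of members beside 10.7% of all genes, with 10.7% higher.

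Between Ad-GFP and Bleomycin, no member passed the test, where 0.00588% of all genes were higher and 0.00588% lower, and none had an unadjusted p under 0.05 in either direction, beside 0.665% of all genes higher and 1.02% lower. The median log2 fold change of the members was -0.17, beside -0.03 over all genes, and it was -0.28 in batch 2 and 0.23 in batch 1. Ighv10-3 had 3.02, 0.56, 2.50 and 0.71 TPM in Ad-GFP, against 22.1, 2.43, 1.16 and 11.2 TPM in Bleomycin (-1.45, limma adjusted p = 0.9998). Ighv1-71, second by p-value, was at 0 in 3 of 4 Bleomycin libraries and reached at most 1.76 TPM in Ad-GFP.

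**Figure D4:**
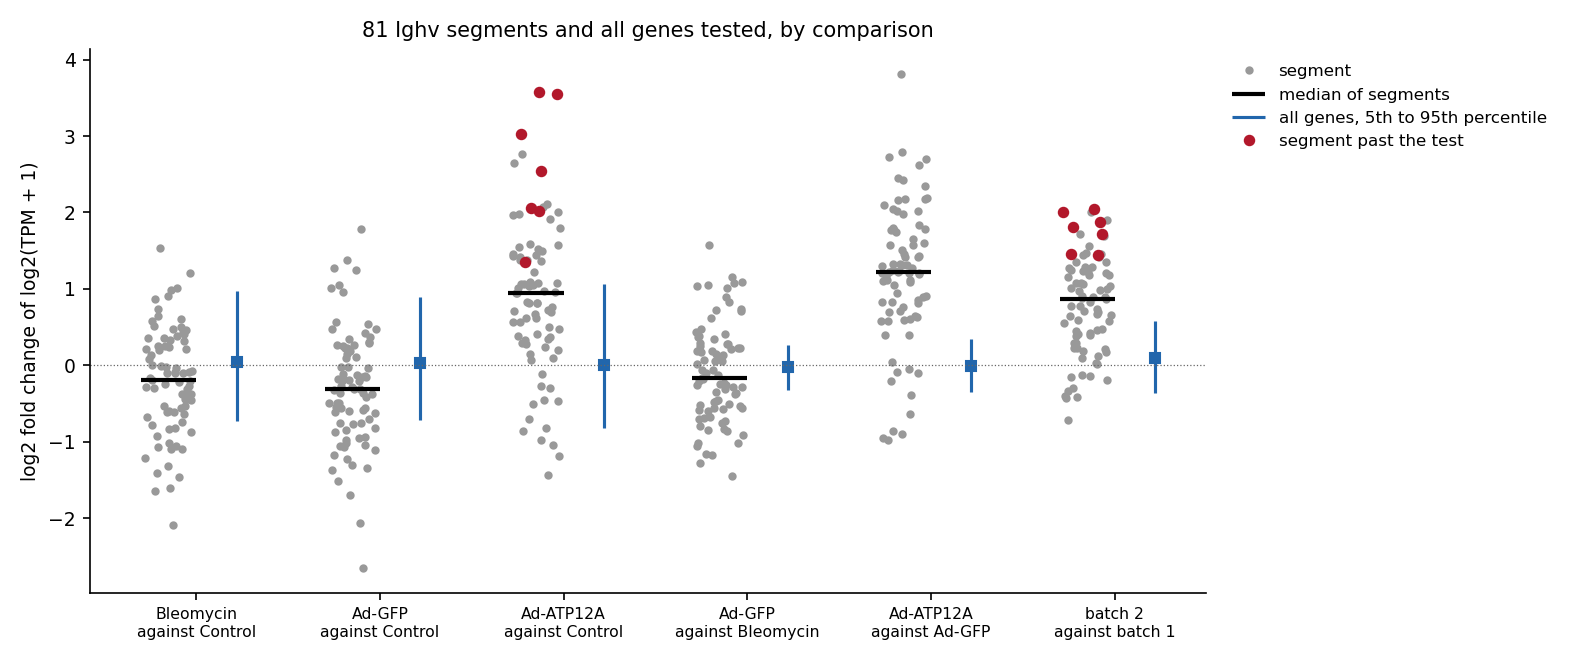
Points are the log2 fold changes of the 81 segments in each comparison (red, past the test), black lines their median, and blue bars the 5th to 95th percentile of all 17003 genes tested with a square at their median. The segments spread more widely than genes at large in every comparison, and their median departs most from that of all genes in Ad-ATP12A against Ad-GFP, 1.22 beside -0.01, without any segment past the test.

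The spread between libraries limits what these tests can call. After group and batch were fitted, the median residual SD of the members was 1.37 on the log2(TPM + 1) scale, beside 0.26 for 11946 other genes in the same range of mean level. The median standard error of a member's fold change between groups was 0.87, beside 0.17 over all genes. A p above the threshold for a segment therefore leaves differences of several fold undetectable at this spread.

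Between batch 2 and batch 1, 7 members rose (8.64%) and none fell, beside 16.4% of all genes higher and 2.11% lower. They were Ighv1-85 (log2 fold change 1.44, SE 0.292, limma adjusted p = 0.0104), Ighv1-81 (1.81, adjusted p = 0.0139), Ighv9-3 (1.72, adjusted p = 0.0206), Ighv1-26 (2.05, adjusted p = 0.0285), Ighv14-3 (2.01), Ighv3-8 (1.45) and Ighv8-8 (1.88, adjusted p = 0.0379). Ighv1-26 averaged 117 ± 174 TPM in batch 2 and 16.6 ± 9.70 TPM in batch 1 (SD, n = 8 each). Ighv9-3 averaged 47.8 ± 53.6 TPM in batch 2 and 14.2 ± 16.8 TPM in batch 1, and Ighv1-81 averaged 18.9 ± 14.6 TPM in batch 2 and 5.45 ± 5.17 TPM in batch 1. For all 7 the batches overlapped. Without the 3 libraries low in Scgb1a1 the count was 0, and without the 2 libraries with the highest sums it was 1, Ighv1-85. Leaving out 1 library gave counts from 3 to 11. Among these were 3 (Ad-GFP b2r2, Bleomycin b2r1 or Bleomycin b1r2), 4 (Ad-ATP12A b2r2, b1r1 or b1r2, Ad-GFP b2r1 or b1r2) and 11 (Control b2r1 or b1r1). The fits not named here lay within this range.

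The constant regions give the antibody classes to which rearranged V exons are spliced. Ighg1, the constant region of IgG1, had 289, 3271, 816 and 1166 TPM in Ad-ATP12A, 427, 375, 187 and 47.4 TPM in Ad-GFP, 299, 5.09, 3.09 and 1.66 TPM in Bleomycin, and 25.7, 2.43, 1.63 and 1.96 TPM in Control. Every Ad-ATP12A library and every Ad-GFP library lay above every Control library. Ighg1 rose in Ad-ATP12A against Control (log2 fold change 7.56, limma adjusted p = 0.000786) and in Ad-GFP against Control (5.24, limma adjusted p = 0.01004), and the Ad-ATP12A against Ad-GFP difference was 2.32 (limma adjusted p = 0.999). Bleomycin against Control was 1.20 (limma adjusted p = 0.487) and became -0.15 without Bleomycin b2r1. In Ad-GFP against Bleomycin none of the 7 heavy chain constant regions tested passed. In level, Bleomycin b2r1 lay above Ad-ATP12A b2r1 and both batch 1 Ad-GFP libraries. Ighg1 made up 23.4%, 47.2%, 49.1% and 51.6% of heavy chain constant TPM in Ad-ATP12A, 47.4%, 41.6%, 12.6% and 26.5% in Ad-GFP, 11.6%, 0.704%, 0.583% and 0.418% in Bleomycin, and 6.87%, 0.190%, 0.146% and 0.175% in Control. These shares were not tested. Ighd, the IgD constant region of resting B cells, fell in Ad-ATP12A against Control (-1.25, limma adjusted p = 0.0268) and in Ad-GFP against Control (-1.59, limma adjusted p = 0.0135). The Ighd call in Ad-GFP was lost without Ad-GFP b1r2 and that in Ad-ATP12A in 5 of 16 fits that left out 1 library (Ad-ATP12A b2r1 or b2r2, Control b2r1, b2r2 or b1r2). Ighm and Igha did not pass in any comparison.

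**Figure D5:**
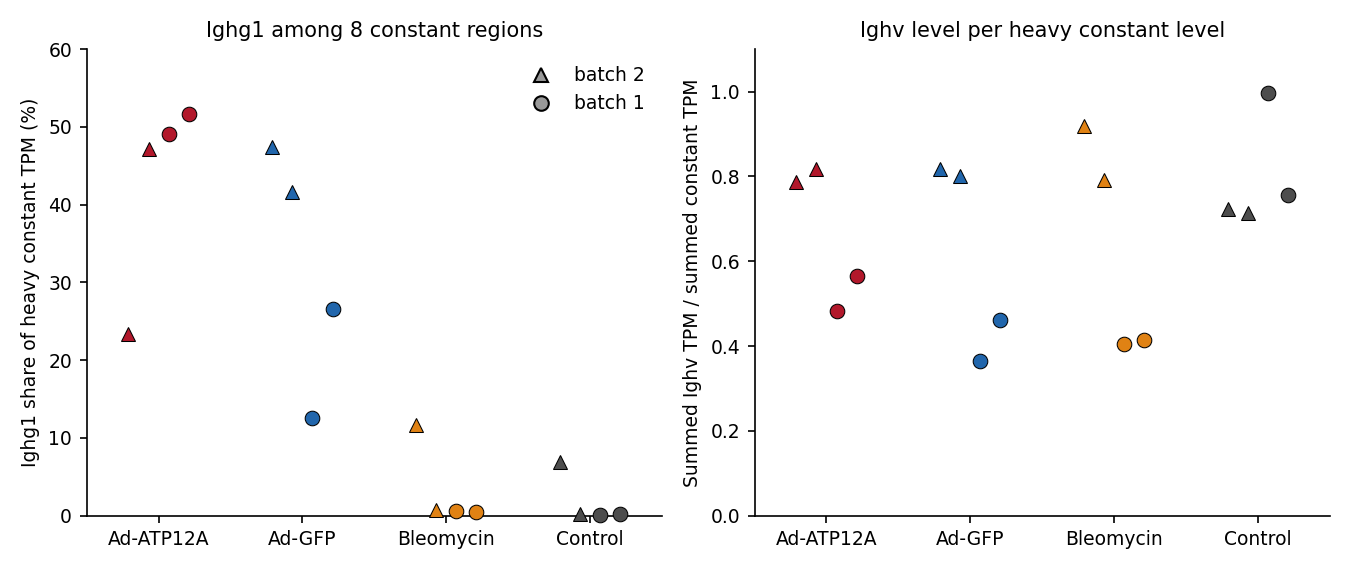
Left, the share of Ighg1 in the summed TPM of 8 heavy chain constant regions, in %; right, the summed Ighv TPM divided by that constant region sum. Points are libraries (triangles batch 2, circles batch 1). The Ighg1 share is 12.6% to 51.6% in the 8 libraries given an Ad agent and 0.146% to 11.6% in the other 8, and the ratio on the right is lowest in the 6 bleomycin-treated libraries of batch 1. Neither quantity was tested.

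Divided by the constant region sum, the Ighv sum gave a ratio of 0.364 to 0.998 over the libraries. In the bleomycin-treated groups the ratio was 0.788 to 0.920 in batch 2 and 0.364 to 0.566 in batch 1, and Control had 0.722 and 0.713 in batch 2 and 0.998 and 0.757 in batch 1. Per summed light chain Igkv TPM the ratio was 0.323 to 0.578.

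Genes of the B lineage were read from fixed lists to set the segments in context. Over all genes tested, 9.16% were higher and 4.52% lower in Ad-GFP against Control. These shares were 13.3% and 9.49% in Ad-ATP12A against Control, and 13.2% and 5.61% in Bleomycin against Control. For the fits below that add a term or leave out libraries, the share of all genes is not given. Of 16 B cell genes, 9 fell and none rose in Ad-GFP against Control, among them Cd79a (log2 fold change -1.55), Bank1 (-1.37), Cd79b (-1.49) and Ms4a1, which encodes CD20 (-1.66), with limma adjusted p-values of 0.0161 to 0.0260 for these 4. Without the 3 libraries low in Scgb1a1, Control b2r1 among them, none of the 16 fell. Without Ad-GFP b1r2 none of these 4 passed, the highest adjusted p over single libraries left out being 0.0978. In Ad-ATP12A against Control 4 fell, among them Ebf1 (-0.57) and Fcmr (-1.31), and 2 rose, Blnk (0.70) and Cd72 (1.08), which are also expressed in myeloid cells. With a term for the libraries with Xist 11 fell, and without the 3 libraries low in Scgb1a1 none did. Ebf1 and Fcmr no longer passed without Ad-ATP12A b2r1, without Ad-ATP12A b2r2 or without Control b2r1, and Fcmr also without Control b1r1 or b1r2. In Bleomycin against Control 2 rose, again Blnk (0.83) and Cd72 (1.28). Of 15 plasma cell genes, 3 rose and 1 fell in Ad-ATP12A against Control: Sdc1, which lung epithelium also expresses (0.43), Creld2 (0.47) and Txndc5 (0.30) rose, and Prdm1, the plasma cell transcription factor (-0.64), fell. Creld2 and Txndc5 did not follow the antibody genes in every library. In Ad-GFP b1r2 they had 42.5 and 107 TPM, where Jchain and Mzb1 had 13.6 and 3.97 TPM. The Prdm1 call was lost in 12 of 16 fits that left out 1 library, with an adjusted p up to 0.151, and held without Ad-ATP12A b1r2, Ad-GFP b2r1, Ad-GFP b2r2 or Control b2r2. The Creld2 and Txndc5 calls were each lost in 5 such fits, Ad-ATP12A b2r2, Control b2r1 and Control b1r1 among them in both cases, while that of Sdc1 held in all 16. Sdc1 was the 1 gene of that list past the test in Bleomycin against Control (0.50) and in Ad-GFP against Control (0.45). Jchain and Mzb1, 2 genes closely tied to antibody secretion, did not pass in any comparison, with values of 0.60 and 0.89 in Ad-ATP12A against Control (limma adjusted p = 0.668 and 0.233).

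Among signals that recruit or sustain B cells and their receptors, some were higher in the treated groups and some lower in Ad-GFP. Of 13 tested, 6 rose in Ad-ATP12A against Control, beside 13.3% of all genes. In Ad-GFP against Control 3 rose and 2 fell, beside 9.16% of all genes higher and 4.52% lower. Without the 3 libraries low in Scgb1a1, 2 rose and none fell in that comparison. In Bleomycin against Control 3 rose, beside 13.2% of all genes. The receptor Cxcr5, named after its values were seen, had 3.69, 4.57, 4.82 and 1.63 TPM in Ad-GFP, against 12.8, 11.1, 7.88 and 11.8 TPM in Control. Cxcl13, the chemokine that draws B cells into follicles, had 63.3, 65.3, 23.4 and 28.7 TPM in Ad-ATP12A, 9.84, 41.8, 11.7 and 22.9 TPM in Ad-GFP, 14.7, 38.6, 24.3 and 12.9 TPM in Bleomycin, and 7.84, 7.45, 4.28 and 6.93 TPM in Control. Every library given bleomycin lay above every Control library, with log2 fold changes against Control of 2.49 in Ad-ATP12A, 1.37 in Ad-GFP and 1.53 in Bleomycin (limma adjusted p = 0.00135, 0.0385 and 0.0192). The Ad-ATP12A call held in all 16 fits that left out 1 library. The Ad-GFP call was lost in 6 (Ad-GFP b2r2 or b1r2, or any Control library, adjusted p up to 0.134), and the Bleomycin call in 3 (Bleomycin b2r2 or b1r1, or Control b1r1, adjusted p up to 0.0721). Ccl21a, a chemokine of lymphatic vessels and T cell zones, rose by 0.95, 1.00 and 0.98 in these 3 comparisons. Among germinal centre and class switching genes, Ung and Msh6 rose in Ad-ATP12A against Control and in Bleomycin against Control, and Ung rose in Ad-GFP against Control. Leaving out 1 library ended the Ung call in Ad-GFP in 4 of 16 fits and the Msh6 call in 7 fits for Ad-ATP12A and 3 for Bleomycin. In Ad-ATP12A against Ad-GFP and in Ad-GFP against Bleomycin no gene of these lists passed. Of 7 genes of early B cells and V(D)J recombination 2 were tested, and Il7r, which T cells also express, rose by 0.69, 0.64 and 0.79 in Ad-ATP12A, Ad-GFP and Bleomycin against Control (the Ad-GFP call was lost in 5 of 16 fits that left out 1 library).

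Summed markers of other cell types varied beside these values. The counts of markers past the test stand beside 13.3% of all genes higher and 9.49% lower in Ad-ATP12A against Control. The share of all genes lower was 4.52% in Ad-GFP against Control and 5.61% in Bleomycin against Control. The 5 B cell markers summed to 36.3 to 137 TPM in Ad-ATP12A, 32.3 to 65.6 TPM in Ad-GFP, 45.4 to 129 TPM in Bleomycin and 116 to 178 TPM in Control. The 5 plasma cell markers, of which Sdc1 made up a large part, summed to 261 to 619 TPM in Ad-ATP12A, 212 to 365 TPM in Ad-GFP, 258 to 623 TPM in Bleomycin and 199 to 348 TPM in Control. The 5 T cell markers summed to 63.1 to 71.1 TPM in Ad-ATP12A, 27.3 to 69.3 TPM in Ad-GFP, 34.1 to 76.3 TPM in Bleomycin and 33.7 to 46.6 TPM in Control, and 4 of the 5 rose in Ad-ATP12A against Control. Red blood cell markers summed to 9234 to 39808 TPM in Ad-ATP12A, 10442 to 23883 TPM in Ad-GFP, 5779 to 14084 TPM in Bleomycin and 16514 to 50937 TPM in Control. Of the 5, 1 fell in Ad-ATP12A against Control, 1 in Ad-GFP against Control and 5 in Bleomycin against Control. Of 4 listed genes of lymph node stroma, 3 are in the table and summed to 1.96 to 11.3 TPM in Ad-ATP12A, 1.95 to 5.06 TPM in Ad-GFP, 3.42 to 7.09 TPM in Bleomycin and 4.47 to 8.09 TPM in Control, with Madcam1 under 1 TPM in every library. The 3 endothelial markers, Cldn5, Pecam1 and Cdh5, summed to 381 to 759 TPM in Ad-ATP12A, 504 to 1143 TPM in Ad-GFP, 529 to 967 TPM in Bleomycin and 916 to 1284 TPM in Control. Ad-ATP12A and Control did not overlap, and all 3 genes fell in that comparison. The 4 lung epithelial markers summed to 7167 to 33226 TPM in Ad-ATP12A, 7898 to 35792 TPM in Ad-GFP, 13450 to 28930 TPM in Bleomycin and 22523 to 35125 TPM in Control. The part of these cell types in the Ighv values was not tested.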

How the data were processed

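Total RNA of lung tissue from 16 mouse libraries was sequenced. The values used are log2(TPM + 1) per Ensembl gene, as the authors deposited them in 1 table of all libraries. The submitters' processing notes name STAR (an aligner), RSEM (a quantifier) and the build GRCm39, and tool versions are not given in the sources used here. How reads were shared among V segments that are nearly identical or carry somatic mutations is also not given, and such sharing can move a segment's level. Back-transformed values were multiples of 0.01 TPM and each library summed to the same total, so read depth is unknown and no counting interval is given.

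Symbols were matched by Ensembl gene identifier (52093 of 53647 genes), and coding sequences were taken from GENCODE transcripts of GRCm38. That build differs from the one of the values, so no coordinates are given. Genes with 1 TPM or more in at least 4 libraries were tested (17003) with limma 3.58.1 in R 4.3.3, with a trended prior on log2(TPM + 1), pseudocount 1, 4 group means and a batch term over all 16 libraries. Tests were two-sided with Benjamini-Hochberg adjustment over all genes and a threshold of 0.05, and the procedure was tested on simulated data. Tables and figures used Python 3.11.15, pandas 2.3.3 and Biopython 1.88.

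Named segments were the 10 with the largest mean share, each segment leading a library, up to 6 past the test in each direction with the smallest p, the 2 with the smallest p where none passed, and 3 on each side of the rule, and named genes were up to 4 of each fixed list. Others were named after their values were seen, as stated. Part of the result of the germinal centre and class switching list is not reported here. The members and lists were chosen with earlier results of these data known. Alternatives were pseudocount 0.1, no filter, a mean of 5 TPM or more, quantile normalization, no batch term, a replicate block, a robust prior, the compared libraries alone, each batch alone, a term for libraries with 10 TPM or more of Xist, leaving out libraries under 1000 TPM of Scgb1a1, and leaving out each library. Leaving out the 2 libraries with the highest summed Ighv level was chosen after seeing the data.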

Additional observations from a re-analysis of the deposited data

Results flagged for a closer look

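Of 140 group values examined (the summed level, the effective number of segments and single segments), 12 had 1 library far from the other 3 of its group by Dixon's criterion for 4 samples. The criterion flags about 1 in 20 groups by chance where values were not chosen for their levels. Many of the segments examined were named for their values in these data, so 12 of 140 cannot be read against that rate.

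In Ad-ATP12A, b2r2 stood high in Ighv1-19 (249.54 TPM, others 15.73 to 23.21), Ighv1-39 (127.98 TPM, others 13.94 to 17.35) and Ighv3-8 (14.75 TPM, others 0.73 to 0.94). Ad-ATP12A b2r1 stood low in Ighv1-58, at 0.48 TPM with 48.32 to 88.72 TPM in the others, and b1r2 had an effective number of 14.2 segments with 25.02 to 26.0 in the others.

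Ad-GFP b1r2 stood low in the summed Ighv level (82.27 TPM, others 540.64 to 737.64), in Ighv1-55 (0.57 TPM, others 19.21 to 27.84) and in Ighv1-64 (0.60 TPM, others 26.68 to 44.55). Ad-GFP b2r2 stood high in Ighv5-9 at 6.43 TPM, with 0.55 to 0.69 TPM in the others.

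In Bleomycin, Ighv1-71 had 0.67 TPM in b1r1 and Ighv2-4 had 1.54 TPM in b2r1, each at 0 in the other 3 libraries. In Control, Ighv5-6 had 131.71 TPM in b1r2 and 2.09 to 2.31 TPM in the others.

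Ighv1-69, named after its values were seen, differed between batches in its difference from Control. The Ad-ATP12A against Control value was 3.61 in batch 2 and -0.87 in batch 1, a difference of 4.47 (limma interaction, adjusted p = 0.0475). The Ad-GFP against Control value was 2.97 in batch 2 and -2.01 in batch 1, a difference of 4.99 (limma interaction, adjusted p = 0.0376). Both rest on the same Control libraries, which had 0.57 and 0.96 TPM in batch 2 and 6.04 and 7.27 TPM in batch 1. Ad-ATP12A had 29.4 and 14 TPM in batch 2 and 5.98 and 1.51 TPM in batch 1, and Ad-GFP had 22.9 and 6.95 TPM in batch 2 and 2.57 and 0 TPM in batch 1. For Bleomycin against Control the difference was 4.89 (adjusted p = 0.0610).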

How the results depend on the processing

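Counts of segments past the test moved with the processing. For Ad-ATP12A against Control the 7 became 4 with pseudocount 0.1, 2 with no filter and 3 without a batch term. The count was 2 without the 3 libraries low in Scgb1a1 and 3 with a Xist term, and leaving out 1 library gave 2 to 8. In batch 1 alone 3 were higher and 1 lower, and in batch 2 alone 5 were higher. Of the 7, batch 1 alone called Ighv1-63 and Ighv1-58, and batch 2 alone called only Ighv1-63. The share of all genes called in these fits is not given. For Ad-GFP against Control the 0 became 2 without the libraries low in Scgb1a1, 2 with the Xist term, 9 in batch 1 alone and 1 in batch 2 alone, and leaving out 1 library gave 0 to 2. For Bleomycin against Control the 0 became 10 in batch 1 alone and 1 without the 2 libraries with the highest sums. For batch 2 against batch 1 the 7 became 2 with no filter, 0 without the libraries low in Scgb1a1, 12 with the Xist term and 1 without the 2 highest libraries, and leaving out 1 library gave 3 to 11. No filter tests more genes and leaving out libraries reduces the number of samples, but the causes of the shifts were not tested. Ad-ATP12A against Ad-GFP and Ad-GFP against Bleomycin stayed at 0 under each setting. Quantile normalization moved the median of all genes by -0.10 between batches. Ighg1 in Bleomycin against Control reversed, to -0.15 without Bleomycin b2r1 and -0.19 without the 2 highest libraries, with 1.89 at the other end of leaving out 1 library. Libraries with the same replicate number were not paired by the labels, and their deviations correlated between -0.16 and 0.21 over 12 pairs, 1 of them over 0.1. With a replicate block the count was 5 for Ad-ATP12A against Control, 7 for batch 2 against batch 1 and 0 for the other 4 comparisons.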
